A study of Bos taurus with 31 samples.

Results

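Virgin mammary organoids of dairy cows were compared here by how much milk protein transcript the same animal's organoids carried later, in lactation. The members were the 15 virgin libraries of the 31 libraries in the series, and they were chosen by a value of another library: the share of all counts that CSN1S1, CSN1S2, CSN2, CSN3, LALBA and PAEP took in the lactating library of the same animal number. Later-high virgin libraries were the 8 whose lactating partner had 10% or more of its counts on these 6 genes, and later-low virgin libraries were the 7 whose partner had under 10%. The organoids, clusters of epithelium left after collagenase digestion of a gland biopsy, came from 16 cows sampled as virgins at 14 months of age and again at 40 to 60 days of lactation. The labels give no treatment, genotype or breed, and 1 animal had a lactating library only. Each library came from a separate animal, so the spread within a group is a spread between cows.

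The milk protein genes encode the caseins (CSN1S1, CSN1S2, CSN2 and CSN3), alpha-lactalbumin (LALBA), which is the regulatory subunit of lactose synthase, and beta-lactoglobulin (PAEP). In the virgin gland the ducts are built of luminal and basal cells within a stroma of fibroblasts, fat and blood vessels. Alveoli, the secretory units, form during pregnancy under progesterone and prolactin, and the capillary bed around them expands at the same time. Digestion followed by brief spins, as the labels describe, clears most loose single cells, but vessels and stromal cells can stay attached to the epithelium.

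The lactating shares that placed the animals are a description, with no test. In later-high animals they ran from 16.8% to 38.6% of counts with a median of 26.4%, and in later-low animals from 0.150% to 6.88% with a median of 3.44%. Nearest to the threshold were the partner of V595 at 16.8% on the high side and that of V490 at 6.88% on the low side. When each counted locus entered the total once, the partner of V490 had 11.2%, which moved V490 to the later-high group. A threshold of 5% moved V490, V504 and V615.

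Total counts per virgin library ran from 20128378 to 60114505 (median 29356032) in the later-high and from 21590725 to 40103837 (median 35866491) in the later-low group. A letter after the animal number stood in the titles of 3 of 8 later-high and 2 of 7 later-low libraries, and the labels do not say what it means. On the first 3 principal components of log2 CPM (counts scaled to a common library total), which held 30.4%, 20.9% and 14.3% of the variance, the 2 groups overlapped. The libraries at the ends were V479 on the first component, V478 on the second and V502 on the third. Epithelial identity was present throughout: EPCAM, a luminal adhesion molecule, lay between 231 and 963 CPM in all virgin libraries, and KRT8, a luminal keratin, between 332 and 2951 CPM.

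**Figure D1:**
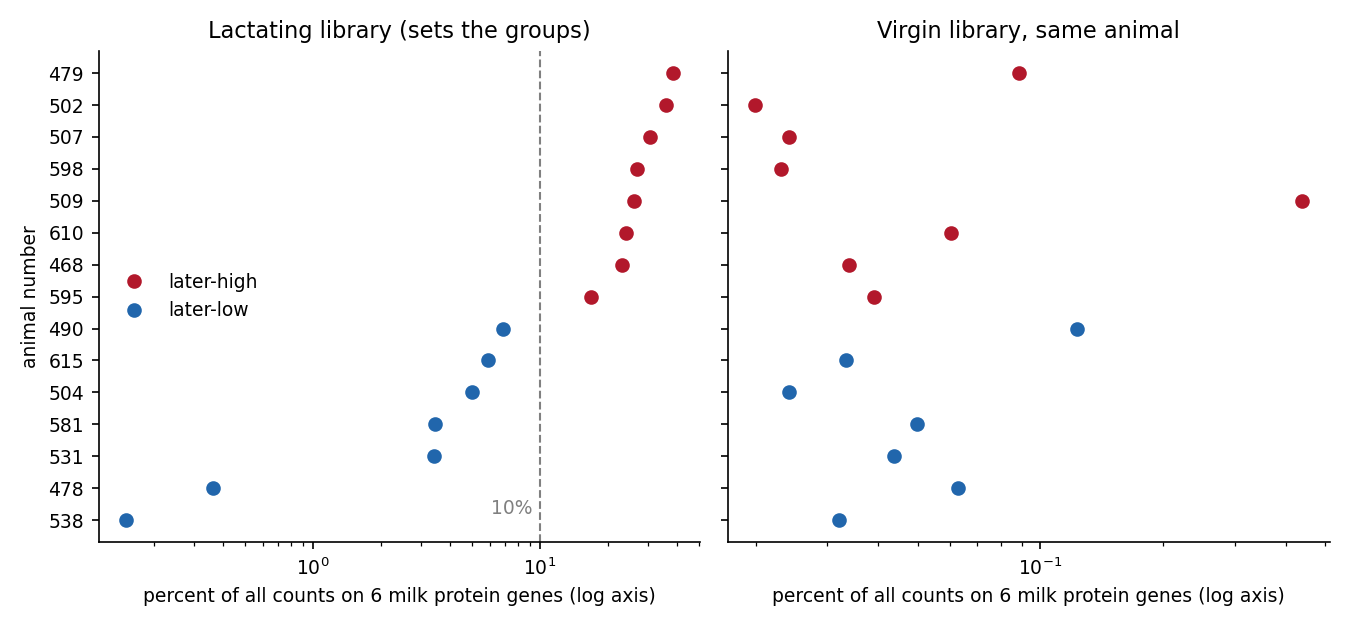
Percent of all counts on the 6 milk protein genes for each animal, in its lactating library (left, which sets the groups at the dashed 10% line) and in its virgin library (right), both on log axes. The virgin shares of the 8 later-high (red) and 7 later-low (blue) animals overlap, with V509 at 0.440% and V490 at 0.123% as the highest of their groups.

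Before pregnancy, the milk protein genes took a low share of counts in both groups, and the ranges overlapped. In later-high virgin libraries the share ran from 0.0200% to 0.440% with a median of 0.0365%, and its mean was 0.0911% ± 0.143 (SD, n = 8). In later-low virgin libraries it ran from 0.0241% to 0.123% with a median of 0.0438%, and its mean was 0.0528% ± 0.0336 (SD, n = 7). The difference of 0.0384 percentage points gave p = 0.794 in a two-sided exact permutation test of the means. Without V509 the difference was -0.0114 points (p = 0.512, the same exact permutation test), so the sign of the mean difference rested on that library.

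CSN3, which codes for kappa-casein, held most of these counts in all virgin libraries but V479, V490 and V509. Its level ran from 185 to 1004 CPM (median 319) in later-high and from 247 to 742 CPM (median 404) in later-low libraries, a log2 fold change of -0.19 ± 0.34 (SE). The other caseins and PAEP were near 0 in most virgin libraries and high in a few. CSN2 (beta-casein) had 95556 counts in V509, 10663 in V490, 4277 in V479 and 3044 in V610, against 4 to 359 in the other 11 libraries. Both groups held such libraries: 3 of these were later-high and 1 was later-low. The log2 fold changes of CSN2 (2.37 ± 1.77), CSN1S1 (1.90 ± 1.73) and PAEP (3.83 ± 1.91) did not pass the test (adjusted p 0.872, 0.893 and 0.769, edgeR quasi-likelihood). These values rested on V490 and V509. Over the 4 tested milk protein genes the median log2 fold change was 2.13 with 0 at an unadjusted p under 0.05, against 7.05 with 3 higher without V490 and 0.39 with 1 lower without V509. It was 7.13 with 3 higher when V490 was moved by counting each locus once, and 6.94 with 5 of 6 tested genes higher at the 5% threshold, and none of these fits called a milk protein gene. CSN1S2 and LALBA were left out by the filter on low counts. Their highest counts were 2657 for CSN1S2, in V490, and 1828 for LALBA, in V509.

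Across all genes, no difference between the groups was called. Of 13296 tested rows, 0 (0%) had an adjusted p under 0.05 in edgeR's quasi-likelihood test, and the lowest adjusted p was 0.185, of a row without a symbol (ENSBTAG00000038494). limma-voom also called 0, while DESeq2 called 77, of which 74 were higher and 3 lower in later-high libraries, so the result depends on the tool. Of the 77, 75 also had an unadjusted p under 0.05 in the same direction in edgeR. The other 2 were the milk genes GLYCAM1, which edgeR's filter left out, and CSN1S1, which rested on the few libraries described above. For GLYCAM1, DESeq2 gave a log2 fold change of 21.2, yet the highest count, 352, was in the later-low library V490. The later-high libraries V509 and V479 had 298 and 200. For CSN1S1, DESeq2 gave 4.89, where edgeR gave 1.90 ± 1.73. The reason for these large DESeq2 values was not tested. Among the 77 were 5 endothelial markers, the matrix genes COL4A1 and COL4A2, and KCNJ8, FABP4, PRDM1 and HGF of other lists. Since edgeR called no row, higher and lower below stand for the sign of its fitted value, not for a call. Adjusted p values below are those of edgeR.

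At an unadjusted p under 0.05, 663 rows (4.99%) were higher and 242 rows (1.82%) lower in later-high libraries, and these 2 percentages are the background for every list below. Over all rows the fitted log2 fold change had a median of 0.02. The median SE was 0.296, and 62.6% of rows had a 95% interval between -1 and 1. A fold of 2 or more either way was fitted for 713 rows. No overlap between the groups was found for 9 rows with the later-high libraries above (0.0677% of rows) and 1 with them below (0.00752%). The 9 were ABCG1, CD300LG, CDH5, FLT1, LRRC32, MXI1, NAV1, RAPGEF3 and ENSBTAG00000038494, and the 1 was RABGAP1.

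**Figure D2:**
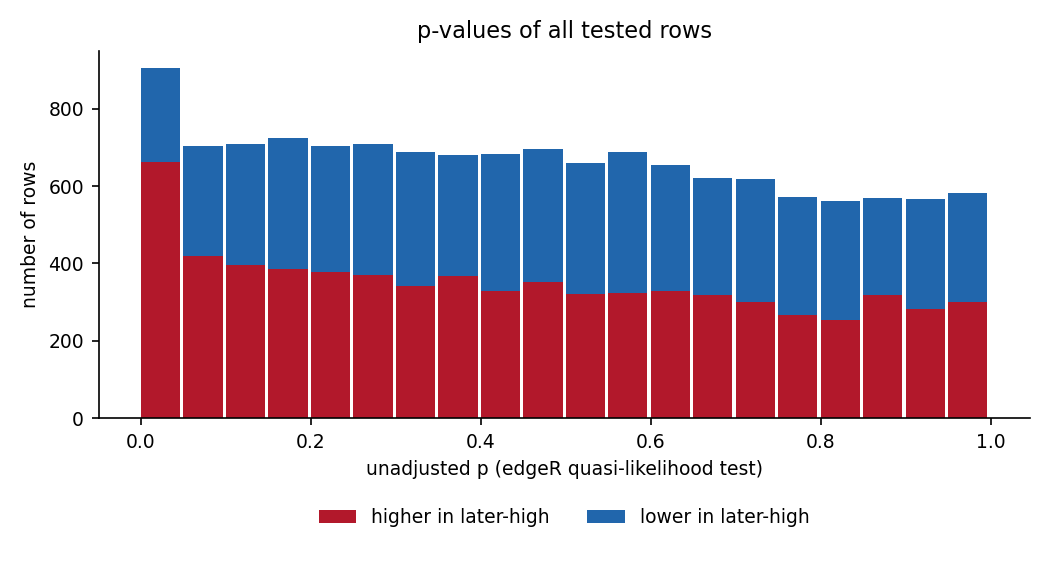
Number of tested rows in each interval of the unadjusted p of edgeR's quasi-likelihood test, 0.05 wide, split by the sign of the log2 fold change. The first interval holds 663 rows higher (red) and 242 rows lower (blue) in later-high libraries, and the next one 420 and 285.

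Among named rows that averaged 2 or more in log2 CPM, the 10 with the smallest p on the higher side included several genes of blood vessel walls. ABCG1, a transporter that exports cholesterol from cells, ran from 13.3 to 45.9 CPM (median 22.5) in later-high and from 3.91 to 12.7 CPM (median 9.64) in later-low libraries. The groups did not overlap, and the log2 fold change was 1.44 ± 0.28 (SE, adjusted p = 0.349). CDH5, the cadherin of endothelial junctions, ran from 24.9 to 117 CPM (median 46.3) against 1.38 to 24.2 CPM (median 15.7), again with no overlap. Its log2 fold change was 2.03 ± 0.48 (adjusted p = 0.349). APOLD1, an endothelial gene induced by stress, had 29.4 to 227 CPM against 4.06 to 33.4 CPM and a log2 fold change of 2.08 ± 0.49. ADGRF5, an adhesion receptor abundant in endothelium, had 10.7 to 35.3 CPM against 1.71 to 11.6 CPM and a log2 fold change of 1.80 ± 0.42. For APOLD1, 6 of 8 and for ADGRF5, 7 of 8 later-high libraries lay above every later-low one. MXI1, which competes with MYC for its partner MAX, had a log2 fold change of 1.05 ± 0.24, and NAV1, a microtubule-associated protein, one of 0.81 ± 0.18, both without overlap. The remaining 4 were FILIP1 (2.21), MGC139164 (1.75), ITPRIPL2 (0.93) and SH3PXD2B (0.81), all with an adjusted p of 0.349 or 0.365 in edgeR. DESeq2 called all 10 of these genes.

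Every endothelial marker examined was higher in later-high virgin libraries. All 15 tested members had a positive log2 fold change and an unadjusted p under 0.05, where 4.99% of all rows did. Members of this list, as of the others, were measured in the same libraries and can vary together. Their number is thus not a count of separate results. None of the 15 passed the adjustment in edgeR, while DESeq2 called 5 of them: EGFL7, CDH5, TIE1, FLT1 and ESAM. The list's median log2 fold change was 1.70, beside 0.02 for all rows. These libraries are bulk RNA, so more endothelial cells and more RNA per endothelial cell cannot be told apart. Summed over the list, endothelial markers ran from 252 to 1210 CPM (median 397) in later-high and from 99.8 to 299 CPM (median 216) in later-low libraries. The overlap came from V468 with 252 and V595 with 285 CPM, which lay below V538 with 299 CPM, and V468 also below V615 with 258 CPM.

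FLT1 and KDR, the receptors of vascular endothelial growth factor, both had positive log2 fold changes. FLT1 had 26.8 to 57.6 CPM (median 35.4) against 1.12 to 23.1 CPM (median 11.2), with no overlap and a log2 fold change of 1.65 ± 0.45 (adjusted p = 0.395). KDR had 36.2 to 108 CPM (median 49.3) against 13.4 to 42.1 CPM (median 31.5) and a log2 fold change of 1.11 ± 0.31 (adjusted p = 0.411). The difference between the 2 receptors was not tested. The angiopoietin receptor TEK had a log2 fold change of 1.46 ± 0.48 and its relative TIE1 one of 2.19 ± 0.62. EGFL7, a protein secreted by endothelial cells, had the largest value of the list, 2.70 ± 0.64, at low levels of 0.123 to 3.04 CPM against 0 to 0.475 CPM. Its counted locus was 0.247 times as long as the RefSeq gene. PECAM1, an adhesion molecule of endothelial contacts, had 35.5 to 246 CPM against 12.5 to 77.2 CPM, a log2 fold change of 1.11 ± 0.43, and 4 of 8 later-high libraries lay within the later-low range. MMRN2, a matrix protein of vessels, had the smallest value, 0.75 ± 0.35.

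The endothelial difference did not rest on 1 library. When each library was left out in turn, the list's median log2 fold change lay between 1.47 and 2.07 and 12 to 15 of 15 members kept an unadjusted p under 0.05, the lowest values being those without V502. Without the lettered libraries the median was 1.5 with 14 members. The lettered libraries alone, 3 later-high against 2 later-low, gave 3.35 with 13, an alternative chosen after seeing the data. Those 2 later-low libraries, V478 and V531, had the lowest mean log2 CPM of endothelial markers of all virgin libraries (1.045 and 1.653). The endothelial difference did depend on where the animals were divided. With V490 moved by counting each locus once, the median was 1.43 with 11 members, and with a threshold of 5% it was 1.32 with 5 members. With the log2 of the lactating share as a continuous term, 7 of the 15 had an unadjusted p under 0.05.

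**Figure D3:**
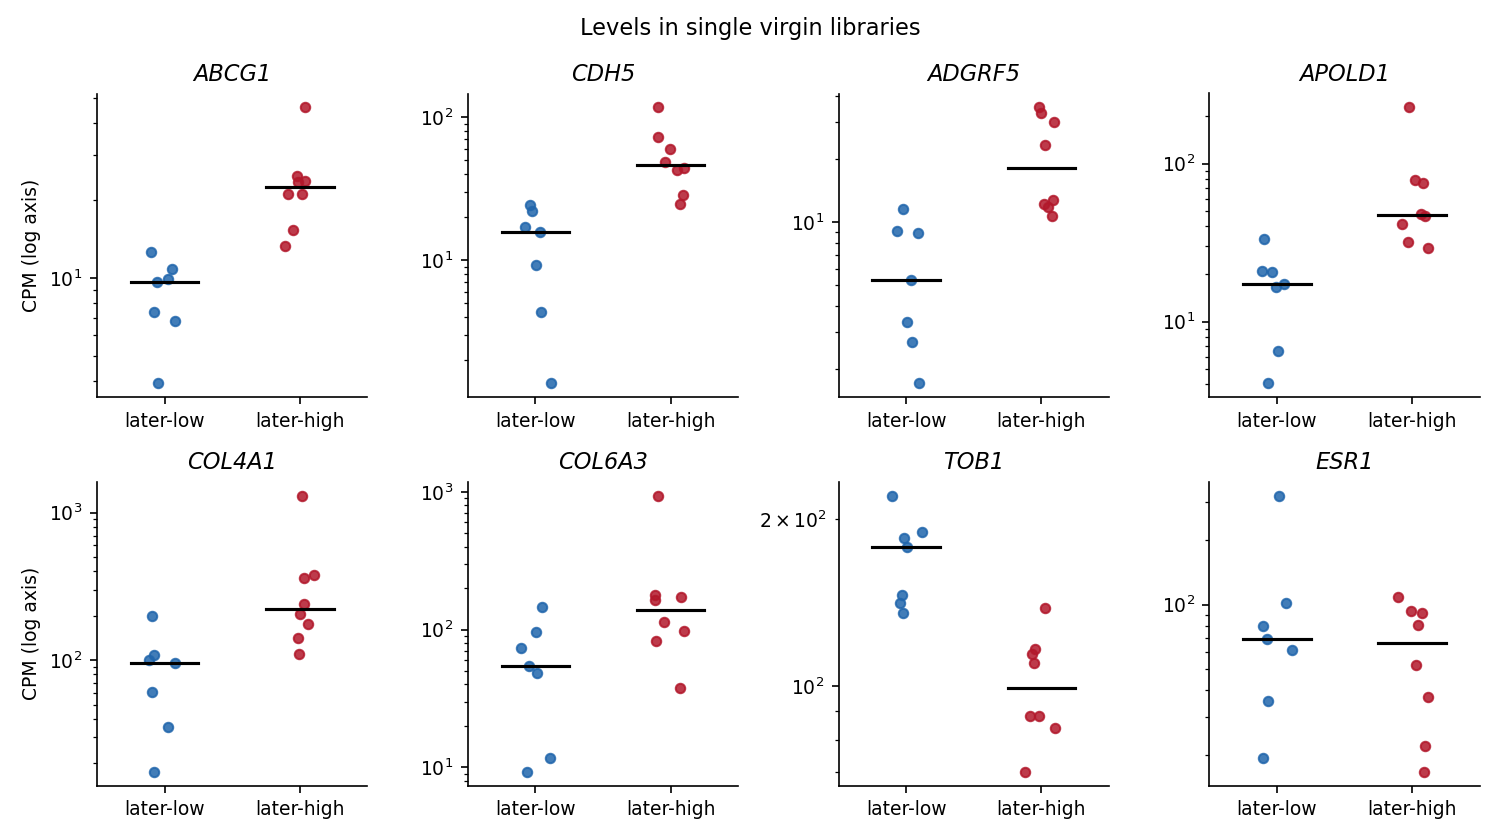
CPM of 8 genes in each virgin library on log axes, later-low (blue, 7 points) and later-high (red, 8 points), with the group median as a bar. ABCG1 and CDH5 do not overlap between groups, COL4A1 and COL6A3 overlap with V502 at the top (1302 and 937 CPM), TOB1 is lower in later-high libraries, and ESR1 overlaps throughout.

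Pericyte markers were also higher on balance. Pericytes wrap capillaries, and 5 of 7 tested markers had an unadjusted p under 0.05 (4.99% of all rows), all higher, with a list median of 1.48. KCNJ8, a potassium channel subunit of pericytes, had 0.615 to 7.22 CPM against 0.0329 to 0.939 CPM and a log2 fold change of 2.33 ± 0.59 (adjusted p = 0.365). Its counted locus was 3.1 times as long as the RefSeq gene, so reads of a neighbour may be joined to it. PDGFRB, a growth factor receptor shared by pericytes and fibroblasts, had 17.0 to 196 CPM against 3.39 to 47.4 CPM and a log2 fold change of 1.52 ± 0.55. Without V502, whose summed pericyte level of 775 CPM compared with 47.0 to 247 CPM in all other libraries, the list median was 0.84 and 2 members had an unadjusted p under 0.05.

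Fibroblast markers were higher too, with V502 far above every other library. Of 15 tested members, 12 had an unadjusted p under 0.05 and all were positive, with a median log2 fold change of 1.62. Summed over the list, V502 had 27600 CPM, while the other later-high libraries ran from 1044 to 3249 CPM and the later-low ones from 459 to 3274 CPM. COL1A1, a fibrillar collagen chain, ran from 67.4 to 7507 CPM (median 225) in later-high and from 14.9 to 610 CPM (median 122) in later-low libraries. Its log2 fold change of 2.36 ± 1.06 gave an adjusted p of 0.695. DCN, the collagen-binding proteoglycan decorin, had a log2 fold change of 0.07 ± 0.27. Without V502 the fibroblast median was 0.61, and 1 member had an unadjusted p under 0.05.

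In the list of extracellular matrix and proteases, 9 of 27 tested members had an unadjusted p under 0.05, all higher, and the median was 0.53. The basement membrane collagens COL4A1 and COL4A2 had the smallest p of the list. COL4A1 ran from 110 to 1302 CPM (median 223) against 17.5 to 199 CPM (median 95.7), with 5 of 8 later-high libraries above every later-low one and a log2 fold change of 2.05 ± 0.56 (adjusted p = 0.395). COL4A2 gave 2.05 ± 0.57. Laminin chains of epithelial basement membrane were nearer to 0, with LAMA3, which stood in the basal list, at 0.57 ± 0.24 and LAMB3 at 0.27 ± 0.29. Without V502, 2 of the 27 matrix genes had an unadjusted p under 0.05.

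**Figure D4:**
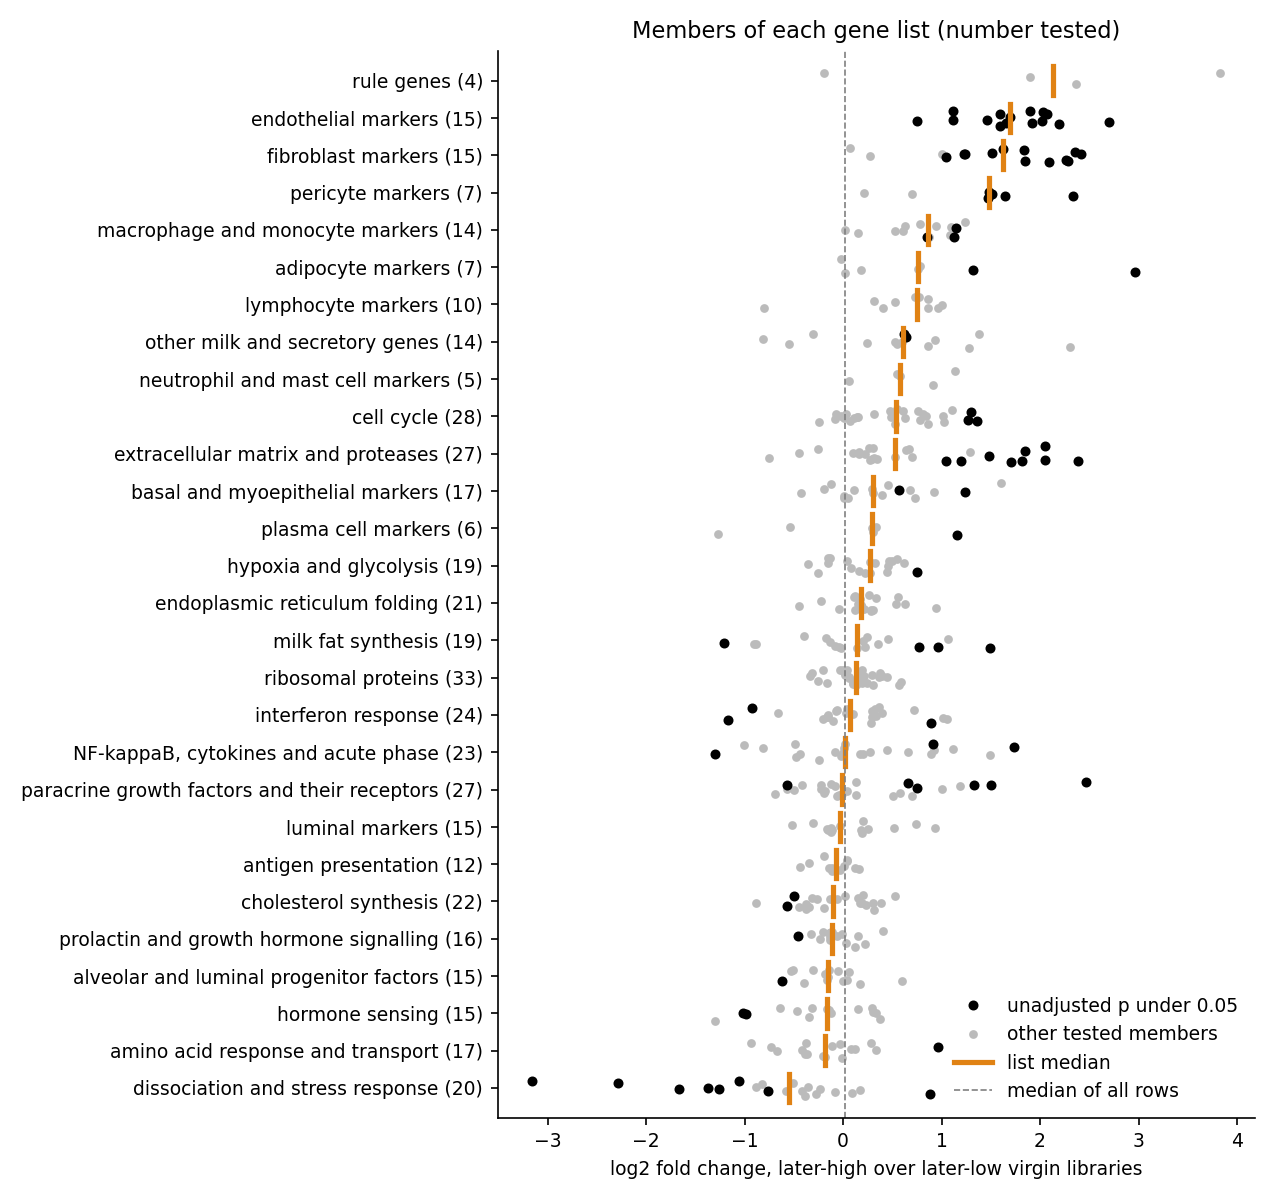
Log2 fold change of each tested list member, later-high over later-low virgin libraries, with members at an unadjusted p under 0.05 in black, the others in grey, the list median as an orange bar and the median of all rows (0.02) as a dashed line. "Rule genes" are the milk protein genes used to place the animals, of which 4 were tested. The 15 endothelial markers lie above 0, and 17 of 20 dissociation and stress genes lie below it.

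Markers of white blood cells gave fewer values past the unadjusted threshold. All 14 tested macrophage and monocyte markers had positive values with a median of 0.86, but 3 had an unadjusted p under 0.05 (MSR1, MRC1 and CD68), and none did without V502, V478, V504 or V531, each left out alone, while 10 did without V581 and 6 without V468. Summed macrophage levels overlapped, at 32.6 to 94.4 CPM against 21.9 to 70.0 CPM. Among lymphocyte markers 0 of 10 and among neutrophil and mast cell markers 0 of 5 had an unadjusted p under 0.05, with medians of 0.75 and 0.58. The lymphocyte count rested on V581: without it, 7 of 11 were higher at an unadjusted p under 0.05 and the median was 1.20. The neutrophil and mast cell median was 0.13 without V595 and 1.07 without V504. Of 6 plasma cell markers 1 did: PRDM1, a transcription factor of plasma cells that other cells also use, with a log2 fold change of 1.15 ± 0.29. JCHAIN, the joining chain of secreted antibodies, gave -1.27 ± 0.87, with V581 at 37.5 CPM as its highest library. The erythrocyte list was not analysed here.

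Of 7 adipocyte markers, 2 had an unadjusted p under 0.05, and the median of 0.76 was 0.19 without V479. FABP4, a fatty acid carrier of adipocytes that capillary endothelium also makes, ran from 11 to 202 CPM (median 25.5) against 0.395 to 15.4 CPM (median 6.42), and 7 of 8 later-high libraries lay above all later-low ones. Its log2 fold change was 2.97 ± 0.75 (adjusted p = 0.365). ADIPOQ and PLIN1, which are more restricted to adipocytes, gave 0.78 ± 0.49 and 0.02 ± 0.36. CFD, the complement factor adipsin, gave 1.32 ± 0.63.

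Luminal markers gave values on both sides of 0, with 7 positive and 8 negative. None of 15 tested luminal markers had an unadjusted p under 0.05, and their median log2 fold change was -0.03, with a sign that turned in several of the alternative groupings and left-out libraries. EPCAM had 231 to 963 CPM (median 349) against 314 to 547 CPM (median 480) and a log2 fold change of -0.03 ± 0.28. Summed luminal markers ran from 3619 to 16440 CPM in later-high and from 3403 to 11350 CPM in later-low libraries. Of the keratins, KRT18 gave -0.51 ± 0.59 and KRT8 -0.11 ± 0.51, both with groups that overlapped. The 2 members with the smallest p were positive: MUC1 at 0.93 ± 0.60 and the keratin KRT19 at 0.74 ± 0.50. For KRT19, all 8 later-high libraries lay above the later-low median, and the ranges overlapped.

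Basal and myoepithelial markers had a median of 0.30, and 2 of 17 had an unadjusted p under 0.05. The median was 0.09 without V479, 0.57 without V504, and -0.01 with 0 members without V479 and V490, while the lettered libraries alone gave 0.75 with 7 higher and 1 lower. The 2 were VIM (1.24 ± 0.47), an intermediate filament protein also made by fibroblasts and endothelium, and LAMA3. The basal keratin KRT5 gave 0.30 ± 0.46, KRT14 gave 0.01 ± 0.53, and the basal factor TP63 -0.20. The counted loci of KRT5 and KRT14 were 19.5 and 13 times as long as the RefSeq genes, and KRT14 and KRT17 had identical counts, so these keratins cannot be read apart from their neighbours.

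The genes through which the epithelium senses hormones showed no called difference before pregnancy. ESR1, the estrogen receptor, ran from 16.7 to 108 CPM (median 66.5) in later-high and from 19.3 to 321 CPM (median 68.9) in later-low libraries, with a log2 fold change of -0.65 ± 0.51 (adjusted p = 0.875). PGR, the progesterone receptor, and MKI67 were not analysed here. In the hormone-sensing list 2 of 15 members had an unadjusted p under 0.05, both lower (1.82% of all rows were), and the median was -0.16. They were TNFSF11 (RANKL), a paracrine signal of hormone-sensing cells, at -1.02 ± 0.38, and the EGF receptor ligand AREG at -0.99 ± 0.43. TNFSF11 was at low levels, with 0.211 to 0.734 CPM against 0.273 to 1.59 CPM, and no later-high library exceeded the later-low median of 0.954 CPM.

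Prolactin acts through its receptor PRLR and the transcription factors STAT5A and STAT5B, and all 3 lay near 0. PRLR ran from 221 to 1466 CPM (median 835) against 465.7 to 1168 CPM (median 846), a log2 fold change of -0.14 ± 0.35 with a 95% interval from -0.88 to 0.60. STAT5A gave -0.12 ± 0.27 and STAT5B -0.02 ± 0.18. GHR, the growth hormone receptor, was the 1 of 16 members of the prolactin and growth hormone list with an unadjusted p under 0.05. It had 36.0 to 77.8 CPM (median 53.1) against 51.0 to 91.7 CPM (median 79.0) and a log2 fold change of -0.46 ± 0.21 (adjusted p = 0.695). No later-high library exceeded the later-low median for GHR.

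Among factors of alveolar and luminal progenitor fate, 1 of 15 had an unadjusted p under 0.05, and the median was -0.15. This was TFAP2B, an AP-2 transcription factor, with 6.03 to 16.5 CPM against 12.1 to 30.4 CPM and a log2 fold change of -0.62 ± 0.25. ELF5, the alveolar factor, gave -0.18 ± 0.41, from a locus 3.57 times as long as its RefSeq gene. KIT, a receptor of luminal progenitors, gave 0.06 ± 0.21. RUNX1 gave -0.53 ± 0.26, and none of the 8 later-high libraries exceeded its later-low median.

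Paracrine growth factors and their receptors had a median of -0.01, with 5 of 27 higher and 1 lower at an unadjusted p under 0.05. HGF, the ligand of the receptor MET, ran from 0.704 to 16.5 CPM (median 1.5) against 0.120 to 1.73 CPM (median 0.483), a log2 fold change of 2.47 ± 0.75 (adjusted p = 0.481). MET itself gave -0.22 ± 0.29. IGF2, a growth factor that acts through the IGF1 receptor, had 145 to 950 CPM (median 227) against 56.8 to 281 CPM (median 105) and gave 1.33 ± 0.42. Its highest library was V479, with V502 next at 314 CPM, and its counted locus stood in 2 rows. FGF7, made by stroma, had 6 of 8 later-high libraries above every later-low one and gave 1.51 ± 0.64. Its receptor gene FGFR2 was the lower member, at -0.57 ± 0.20. TGFB1 gave 0.75 ± 0.33 and NOTCH1 0.66 ± 0.31.

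Genes of milk fat, examined apart from the milk proteins, had values in both directions. Of 19 tested members 3 were higher and 1 lower at an unadjusted p under 0.05, with a median of 0.14. The desaturases FADS1 and FADS2 gave 0.77 ± 0.26 and 1.49 ± 0.48, and VLDLR, a lipoprotein receptor, 0.97 ± 0.45. FADS2 was at low levels, with 0.369 to 2.82 CPM against 0.120 to 0.657 CPM. The counted locus of FADS1 was 0.128 times as long as its RefSeq gene. THRSP, a regulator of lipogenesis, gave -1.21 ± 0.52 at levels under 2 CPM. FASN (fatty acid synthase) gave -0.40 ± 0.42. PLIN2, which coats lipid droplets, had 158 to 359 CPM (median 231) against 126 to 212 CPM (median 154) and a log2 fold change of 0.61 ± 0.20 (adjusted p = 0.519), with 6 of 8 later-high libraries above every later-low one. With MFGE8 (0.64 ± 0.28), a protein of the milk fat globule membrane, it was 1 of 2 among 14 other milk and secretory genes with an unadjusted p under 0.05.

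Genes induced by tissue dissociation and stress were lower on balance in later-high libraries. Of 20 tested members, 7 were lower and 1 was higher at an unadjusted p under 0.05, beside 1.82% and 4.99% of all rows, and the median log2 fold change was -0.55. The chaperone HSPH1 had 39.5 to 167 CPM (median 105) against 96.4 to 758 CPM (median 134) and a log2 fold change of -1.37 ± 0.46 (adjusted p = 0.519). HSPA6, a heat-inducible chaperone, ran from 5.32 to 285 CPM (median 17.1) against 5.62 to 2547 CPM (median 144) and gave -3.16 ± 1.24. The immediate early genes FOS and EGR1 gave -1.06 ± 0.43 and -1.26 ± 0.56, while IER3, another early response gene, was the higher member at 0.88 ± 0.35. The summed level was highest in the later-low libraries V478 (26870 CPM) and V490 (22060 CPM), and ran from 3123 to 13730 CPM in later-high libraries. The number of lower members was 1 without V478, 2 without V490, 12 without V479, 0 without the lettered libraries and 0 with the groups set by counting each locus once. The median summed stress level was 3614 CPM in later-high and 7565 CPM in later-low libraries, and its part in the other results was not tested.

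On the lower side, TOB1 had the smallest p among named rows that averaged 2 or more in log2 CPM. TOB1, an antiproliferative protein, ran from 70.0 to 138 CPM (median 99.1) in later-high and from 135 to 220 CPM (median 178) in later-low libraries, with 7 of 8 later-high libraries below every later-low one. Its log2 fold change was -0.75 ± 0.18 (adjusted p = 0.349 in edgeR), and DESeq2 called it lower. CLDN11, a claudin of tight junctions, ran from 1.27 to 22.4 CPM against 11.6 to 102 CPM and gave -1.79 ± 0.60. MALT1, a protease of NF-kappaB signalling, gave -0.59 ± 0.20, and DBT, a subunit of the branched-chain keto acid dehydrogenase, -0.70 ± 0.23. For MAP3K13 (-1.56), ALPK1 (-1.34), BICD1 (-1.19) and IFI44L (-1.17), the later-low maximum lay far above the later-low median, as at 28.0 against 3.12 CPM for MAP3K13. CCDC138 gave -0.86. The tenth row was listed as bta-mir-29b-1 (-0.86), but its counted locus was far longer than a miRNA hairpin, so it does not measure that miRNA.

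Cell cycle genes were higher on balance, with 24 of 28 positive, a median of 0.54 and 3 of 28 higher at an unadjusted p under 0.05, namely BUB1B (1.36 ± 0.54) and AURKB (1.3 ± 0.56), kinases of mitosis, and the cyclin gene CCNA2 (1.27 ± 0.57). The count was 11 without V581 (median 0.70), 0 without V502 or without V509, and 0 with a median of 0.07 without both. It was 7 with the lettered title as a second term and 8 in the lettered libraries alone.

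In the other gene programs few members passed the unadjusted threshold. Hypoxia and glycolysis genes had a median of 0.28, which was -0.05 without V479, with 1 of 19 higher, LDHA (0.75 ± 0.26), which codes for a lactate dehydrogenase subunit. Cytosolic ribosomal proteins had 0 of 33 and a median of 0.13, endoplasmic reticulum folding genes 0 of 21 and 0.19, and antigen presentation genes 0 of 12 and -0.07. Cholesterol synthesis genes had 2 of 22 lower, SC5D (-0.57 ± 0.24) and CYP51A1 (-0.50 ± 0.22), and a median of -0.10. Amino acid response and transport genes had 1 of 17 higher, VLDLR, and a median of -0.18. In the NF-kappaB, cytokine and acute phase list, 2 of 23 were higher, the cytokines IL6 (1.74 ± 0.56) and IL1A (0.91 ± 0.37), and 1 lower, the chemokine CCL20 (-1.31 ± 0.49), with a median of 0.02. Interferon response genes had 1 of 24 higher, RSAD2 (0.90 ± 0.41), and 2 lower, IFI44L and IFI44 (-0.93 ± 0.40), with a median of 0.07.

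As in the virgin libraries, the later-high group had the higher median endothelial level in the lactating libraries of the same animals. This is given as a description because milk transcript in those libraries set the groups. On a scale common to both stages, summed endothelial markers in virgin libraries were 218 to 1008 CPM (median 324) in later-high and 87.1 to 245 CPM (median 182) in later-low animals. In lactation they were 1217 to 2342 CPM (median 1524) and 350 to 890 CPM (median 624), with no overlap. Summed milk fat genes also separated the groups in lactation (4833 to 8327 against 639 to 2037 CPM). So did cholesterol synthesis (1632 to 2884 against 655 to 1194 CPM) and other milk genes (3462 to 8948 against 1390 to 2918 CPM). Those lists overlapped between the groups in virgin libraries, so separation in lactation was not particular to endothelial markers. All 8 later-high and all 7 later-low animals had a higher summed endothelial level in lactation than as virgins. Pericyte markers were higher in lactation in 7 of 8 later-high and 6 of 7 later-low animals. Their lactating ranges, 367 to 712 CPM in later-high and 120 to 404 CPM in later-low libraries, overlapped. Fibroblast ranges in lactation, 995 to 2011 CPM and 676 to 2040 CPM, also overlapped, and 4 animals of each group were higher in lactation. The animal of V502, with 22980 CPM of fibroblast transcript on this scale as a virgin, had 1659 CPM in lactation. Luminal markers were lower in lactation in all 8 later-high animals and higher in 4 of 7 later-low animals.

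**Figure D5:**
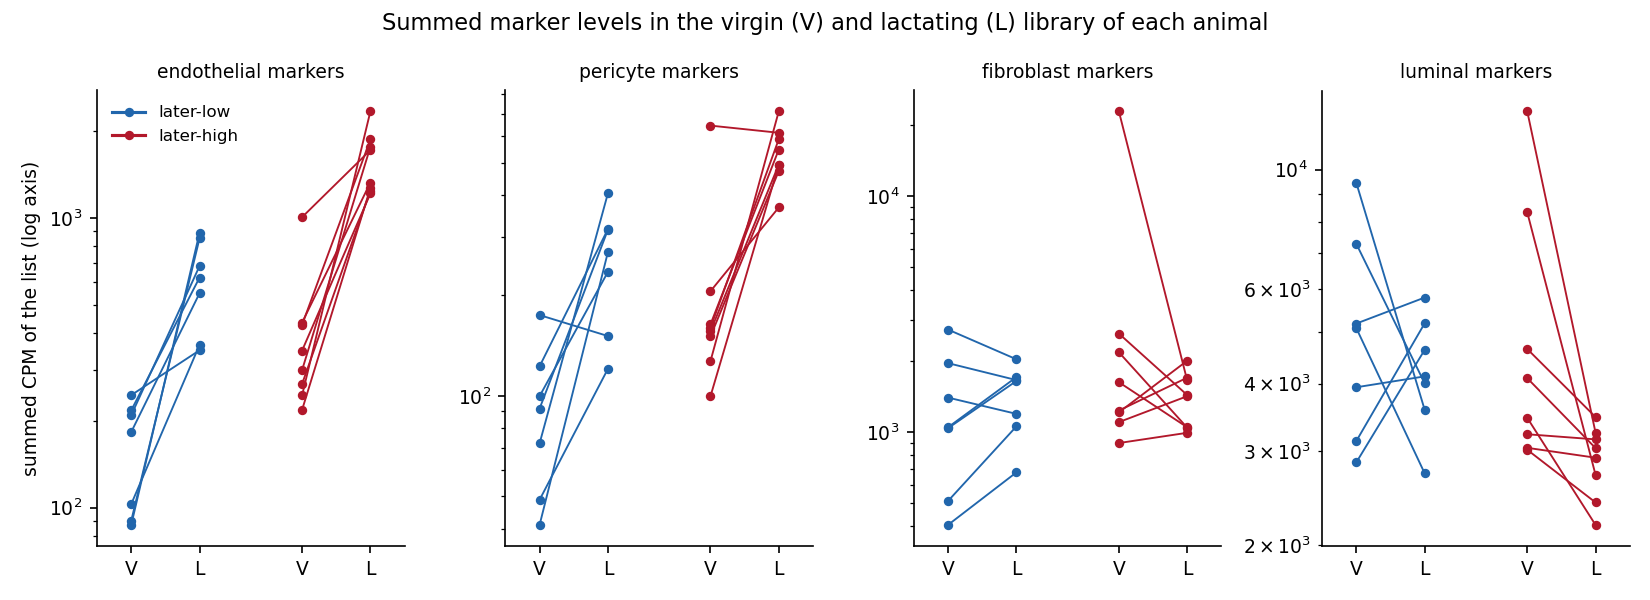
Summed CPM of 4 marker lists on log axes in the virgin (V) and lactating (L) library of each animal, joined by a line, for later-low (blue) and later-high (red) animals. Endothelial sums are higher in lactation in all 15 animals and do not overlap between the groups in lactation (1217 to 2342 against 350 to 890 CPM), while fibroblast sums overlap at both stages apart from V502.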

How the data were processed

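Strand-specific libraries of poly-A RNA had been sequenced, per the labels' protocols. The table analysed held whole-number read counts for each gene, as the authors deposited them and without normalization. RPKM values, deposited by the authors in another table, were used here only to recover the length of each counted locus. The submitters' processing notes name HISAT2 2.0, SAMtools, StringTie 1.3.2, featureCounts 1.5.2, Subread, edgeR and build UMD3.1. What each step did, and whether counting used strand, is not given in the sources used here. No coordinates are printed, because the gene table used for lengths was of another build.

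The 15 virgin libraries alone were fitted with edgeR 4.0.16 in R 4.3.3. filterByExpr (minimum count 10, minimum total 15) kept 13296 of 14084 rows. The fit used TMM factors, robust glmQLFit and glmQLFTest, with the later-high or later-low group as its single term. Rows under 0.05 after Benjamini-Hochberg adjustment over all tested rows were called. Of the loci counted, 592 stood in several rows. Positive log2 fold changes are higher in later-high libraries. The SE is the size of the log2 fold change divided by the square root of F. CPM values used TMM-scaled library totals. As a self-check, the fit was also run on simulated counts drawn independently for each gene and library. That run does not cover genes that vary together or libraries that stand apart, as in these data. DESeq2 1.42.0 and limma 3.58.1 served as alternatives. The milk share was compared with an exact permutation test (scipy 1.17.1).

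Named genes were, per direction, the 10 rows with the smallest p among those with a symbol that averaged 2 or more in log2 CPM, the 2 smallest p of each list, and 18 fixed genes. Other members were named for their known role, with values seen. The groups, lists and tests were chosen with earlier results of these data known. The number of animals limits the precision: the median SE was 0.296 on the log2 scale.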

Additional observations from a re-analysis of the deposited data

Results flagged for a closer look

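In 228 groups of values checked, 18 had a highest or lowest library far from the rest of its group, where chance flags about 1 in 20 groups. Milk genes gave 7 of these. The virgin milk share of V509 (0.440%) and its CSN3 level (9.97, as log2 of CPM plus 0.5) stood above the other later-high libraries. V490 stood above the other later-low libraries in milk share (0.123%), in the mean log2 CPM of the milk protein genes (7.77), and, as log2 of CPM plus 0.5, in PAEP (5.83), CSN2 (8.25) and CSN1S1 (7.81).

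V502 stood apart among later-high libraries in mean log2 CPM of fibroblast markers (8.37) and pericyte markers (5.93), and in the macrophage genes MSR1 (2.70) and MRC1 (2.77), as log2 of CPM plus 0.5. V479 stood apart in mean log2 CPM of hypoxia and glycolysis genes (6.29) and ribosomal proteins (9.96), and in IGF2 (9.89) and HSPH1 (5.32), as log2 of CPM plus 0.5. V610 did so in amino acid response and transport (mean log2 CPM 6.23). Among later-low libraries, V581 stood apart in lymphocyte markers (mean log2 CPM 2.16) and JCHAIN (5.25, as log2 of CPM plus 0.5).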

How the results depend on the processing

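No paired analysis was possible because the groups hold different animals at 1 stage. Of 30 alternatives, 28 also gave 0 calls; DESeq2 gave 77, and the 5 lettered libraries alone, an alternative chosen after seeing the data, gave 1 (ENSBTAG00000006383). The number of rows higher at an unadjusted p under 0.05 (663) was 390 with groups set by counting each locus once, 228 with a threshold of 5%, 401 without lettered libraries, 412 without V502 and V509, and 397 (without V502) to 875 (without V581) when each library was left out. The number lower (242) was 397 with DESeq2, 138 without scaling factors, 83 with groups set by counting each locus once, 157 with the 5% threshold, 82 without lettered libraries, and 133 (without V490) to 358 (without V479) when each library was left out; it was 135 without V478. Calls were 0 in all 15 of those fits. The milk share difference lay between -0.0114 and 0.0502 points when each library was left out and never passed the test. The cause of these shifts was not tested. Of 2506 values of the 84 named genes under alternatives, 19 passed the threshold, all in DESeq2, and 60 uncalled values had the opposite sign. Of 840 list medians under alternatives, 19 moved beyond the spread used for them. That spread was the SD between libraries, within groups, of the list's mean log2 CPM, so large shifts could stay inside it. The falls of the fibroblast and pericyte medians without V502 were not among the 19. Medians with the continuous term are on another scale and were counted as unmoved without comparison. The number 19 is therefore no measure of stability. With 8 and 7 animals, the 95% interval left out log2 differences of 1 in both directions for 62.6% of rows.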
